A study of Bos taurus with 24 samples.

Results

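ZNF830 is a protein-coding zinc finger gene (gene ID 539497, also called CCDC16) and 1 of the 11306 entries in a table of gene expression in bovine oocytes. It lies on chromosome 19 from base 15446156 to 15447897, on the minus strand, in the UMD3.1.1 coordinates of the deposited table, which lists it once. The gene was chosen on its values in mature oocytes, where it was lower in summer than in spring. Its season difference in mature oocytes, and every other difference that uses the mature oocytes, is therefore given as a description without a test. The season comparison in immature oocytes rests on other libraries and was tested.

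The study had 24 libraries in 4 groups of 6. Oocytes were taken by ovum pick-up in May (spring) or July (summer) from adult, non-lactating, non-pregnant, crossbred Angus-based beef cows that received no heat treatment other than the weather. In each month, oocytes were lysed either at the germinal vesicle (GV) stage, when they are immature, or at the metaphase II (MII) stage, after maturation in culture with follicle-stimulating hormone. The surrounding cumulus cells were removed at both stages. According to the methods, each library was a pool of 4 oocytes of 1 animal, whereas the sample labels also speak of single cells. All groups share the animals' breed type and housing, and MII oocytes differ from GV oocytes by the time in culture as well as by stage. The methods describe repeated collections from the same herd of cows in every month, but the sources used here do not say which cow a library came from. Libraries of different groups may therefore share a cow, and p-values measure the spread between these pools. The methods assign 1 of the collections of each month to sequencing. Season therefore cannot be told apart from the collection session or, for MII oocytes, from the culture run. RNA was amplified with Smart-seq2 and expressed as FPKM, which is sequenced fragments divided by exon length and library size. As seen from the values, each library had also been scaled to a common total. Levels are thus per length and can be compared between genes.

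ZNF830 is known as a nuclear protein that associates with XAB2 in a splicing complex, and as a partner of RBBP8 (CtIP) in the trimming of broken DNA ends before repair by recombination. Loss of the mouse gene stops development around implantation. A fully grown oocyte makes almost no new RNA from the GV stage onward. Its transcripts are stored, polyadenylated, translated or degraded during maturation, and the early embryo relies on what remains. Because Smart-seq2 primes on the poly(A) tail, a change of tail length and a change of transcript number cannot be told apart in these data, nor can fewer contributing cells and less RNA per cell.

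In spring MII oocytes, ZNF830 was at 36.4, 29.2, 25.9, 25.6, 27.6 and 27.5 FPKM in replicates 1 to 6. In summer MII oocytes, it was at 17.8, 9.40, 12.9, 11.02, 12.9 and 16.5 FPKM. The groups did not overlap, with a gap of 7.76 FPKM between the lowest spring and the highest summer library. The means were 28.7 ± 4.01 FPKM (SD, n = 6) in spring and 13.4 ± 3.21 FPKM (SD, n = 6) in summer.

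In spring GV oocytes, ZNF830 was at 33.9, 21.6, 30.1, 22.9, 21.1 and 35.3 FPKM. In summer GV oocytes, it was at 23.6, 97.2, 15.2, 40.4, 20.1 and 34.3 FPKM. These groups overlapped, and summer included both the lowest and the highest GV library. The means were 27.5 ± 6.41 FPKM (SD, n = 6) in spring and 38.5 ± 30.3 FPKM (SD, n = 6) in summer, with medians of 26.5 and 29.0 FPKM.

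**Figure D1:**
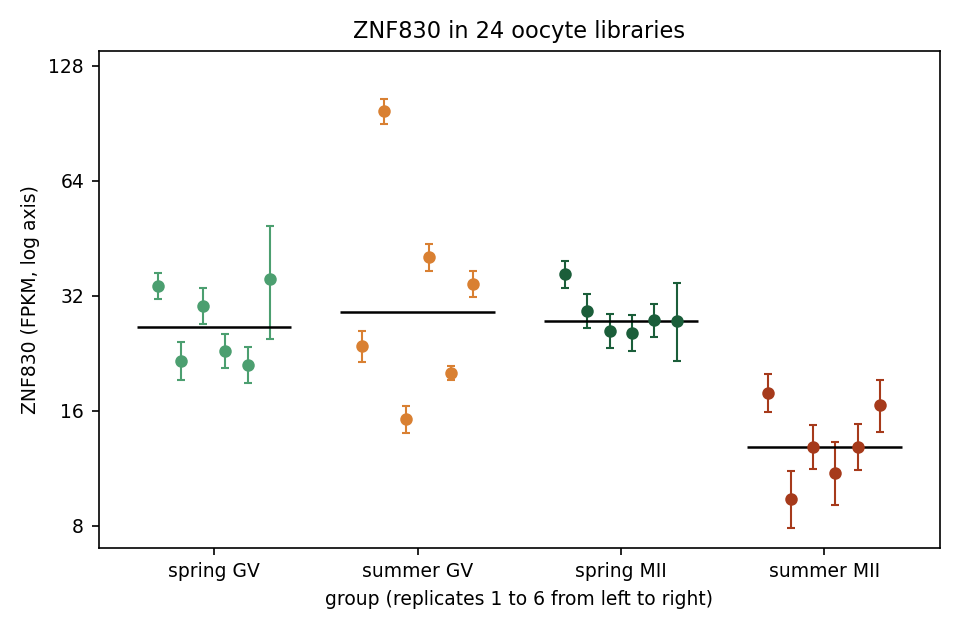
ZNF830 in FPKM (log axis) in each of the 24 libraries; points are libraries, bars are exact 95% counting intervals from the recovered fragments, and horizontal lines are group medians. The 6 summer MII libraries, between 9.40 and 17.8 FPKM, lie below all spring GV and spring MII libraries, and summer GV replicate 2 stands apart at 97.2 FPKM.

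By median, the order of the groups was summer GV (29.0 FPKM), spring MII (27.5 FPKM), spring GV (26.5 FPKM) and summer MII (12.9 FPKM). The ranges of the first 3 groups overlapped, so their order is within the spread of the libraries. Summer MII lay below the whole range of spring GV, whose lowest library had 21.1 FPKM, and overlapped with summer GV through 1 library at 15.2 FPKM.

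The deposited FPKM also held the depth behind these values. After the lowest value of the table, 0.01, was subtracted, the values of a gene were whole multiples of a step, and in every library at least 99.7% of the low values used lay within 0.1 of a whole number. If 1 step is 1 fragment, ZNF830 rested on 36 to 613 fragments in spring GV, 452 to 2362 in summer GV, 74 to 609 in spring MII and 113 to 310 in summer MII libraries. The 6 MII libraries of spring held 2154 ZNF830 fragments and those of summer 1156. In MII oocytes, the exact Poisson 95% intervals had their lowest lower limit in spring at 21.6 FPKM, in replicate 6 with 74 fragments. Their highest upper limit in summer was 19.9 FPKM, in replicate 1 with 310 fragments. Nothing is read from this gap, since the gene was chosen on these values. These intervals cover counting error only, since amplified fragments without molecular identifiers are not independent molecules.

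The spread between pools was larger than counting alone gives. Its coefficient of variation was 14.0% in spring MII, where counting gives 6.59%, and 23.9% in summer MII, where counting gives 7.62%. In spring GV oocytes it was 23.3% against 8.33%. Summer GV oocytes had the widest spread, 78.6% against 3.91%. Replicate 2 of that group rested on 690 fragments, with a counting interval of 90.1 to 105 FPKM.

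3 libraries were shallow by the steps of their values, if 1 step is 1 fragment. These depths were not set against the numbers of sequenced reads. Replicate 6 of spring GV had 0.0565 times the depth of replicate 1 of that group, replicate 6 of spring MII 0.149 times and replicate 2 of summer GV 0.393 times, where the other libraries had 0.542 to 6.51 times. Oocyte markers, of which 11 of 12 were listed (GDF9, BMP15, ZP2, ZP3 and others), summed to 670 to 2183 FPKM in GV and 1499 to 2337 FPKM in MII libraries. The 17 markers of cumulus and granulosa cells summed to 37.6 to 590 FPKM in spring GV, 33.6 to 124 in summer GV, 33.8 to 163 in spring MII and 27.4 to 85.2 in summer MII libraries. In each of the first 3 groups the shallow library had the highest sum, mostly from KRT8, KRT18 and STAR, while the granulosa genes FSHR and CYP19A1 never exceeded 0.0352 and 0.0687 FPKM in any of the 24 libraries. Other members of the list were higher in spring GV replicate 3, where VIM reached 75.7, INHA 37.2 and INHBA 2.82 FPKM and the sum was 156 FPKM, with ZNF830 at 30.1 FPKM. The part of these libraries in each result is shown by leaving them out.

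ZNF830 was an abundant transcript in all 4 groups. Its mean ranked 493 of 11306 entries in spring GV, 334 in summer GV, 379 in spring MII and 688 in summer MII oocytes, the top 4.36%, 2.95%, 3.35% and 6.09%. Zinc finger genes as a class were mostly at low levels: the median of 158 entries named ZNF was 0.256 FPKM in both GV groups, 0.156 FPKM in spring MII and 0.146 FPKM in summer MII oocytes. Among these entries ZNF830 ranked 3, 2, 3 and 4 in the same order of groups. It was thus among the 4 highest ZNF entries also where it was lowest.

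A rank within a library does not depend on how libraries are scaled to each other. In MII oocytes, ZNF830 ranked between 277 and 506 in spring and between 530 and 887 in summer libraries. These ranks did not overlap, in the libraries on which the gene was chosen. In GV oocytes, the ranks were 347 to 594 in spring and 141 to 718 in summer, and overlapped. Set against the median of the entries over 0.1 FPKM in the same library, ZNF830 was 20.7 to 46.7 times that median in spring MII and 10.6 to 22.5 times in summer MII libraries. On this measure the seasons met, since spring MII replicate 6 had the value of 20.7 and summer MII replicate 1 that of 22.5.

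**Figure D2:**
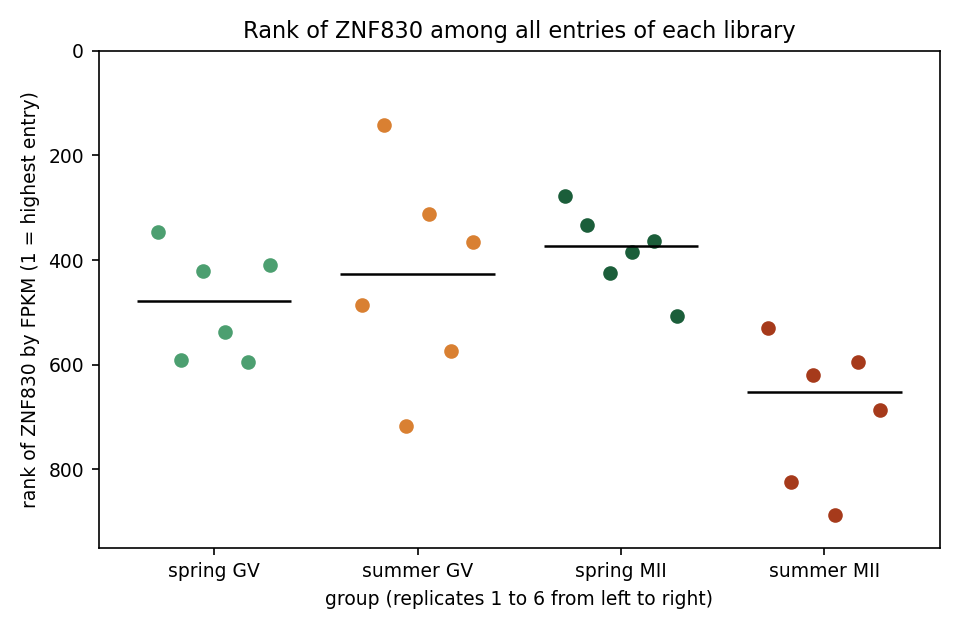
Rank of ZNF830 by FPKM among the 11306 entries of each library (1 is the highest, at the top); points are libraries and lines are group medians. Summer MII libraries rank from 530 to 887, all below the spring MII libraries at 277 to 506, while GV libraries of both seasons are mixed.

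The season comparison in MII oocytes asked which transcripts differ after maturation between oocytes collected in May and in July. On the log2(FPKM + 1) scale, ZNF830 was lower in summer by 1.06 (standard error 0.17), a 2.09-fold difference. Because the gene was chosen on this difference, its size may be overstated, and no interval is given. Of the 9526 entries over 0.1 FPKM in at least 1 library, it had the smallest p value in limma, the linear model run on all of them, and ranked 10 by the size of the difference. The 2.11% of entries with an unadjusted p under 0.05 and the 0.042% that also passed a fold change of 2 include ZNF830 through the choice of the gene, and nothing is read from its being there. No entry had an adjusted p under 0.05 in limma, and 201 had an unadjusted p under 0.05.

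The background of this comparison was narrow. The median difference was -0.01 and the median absolute difference 0.05 over all 9526 entries, and 0.18 over the 969 with a mean of at least 10 FPKM. Of those 969, 6 differed by more than ZNF830 in either direction. For 16 entries, or 0.168%, all summer values lay below all spring values, and ZNF830 was the only one of the 16 with a fold change over 2. These places rest on the MII values on which the gene was chosen, and nothing is read from them. Without the libraries of low depth, the difference of ZNF830 was -1.07 (standard error 0.18). It came to less than 2-fold without spring MII replicate 1 (-0.99), without summer MII replicate 2 (-0.97) and with median-of-ratios scaling (-0.97).

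**Figure D3:**
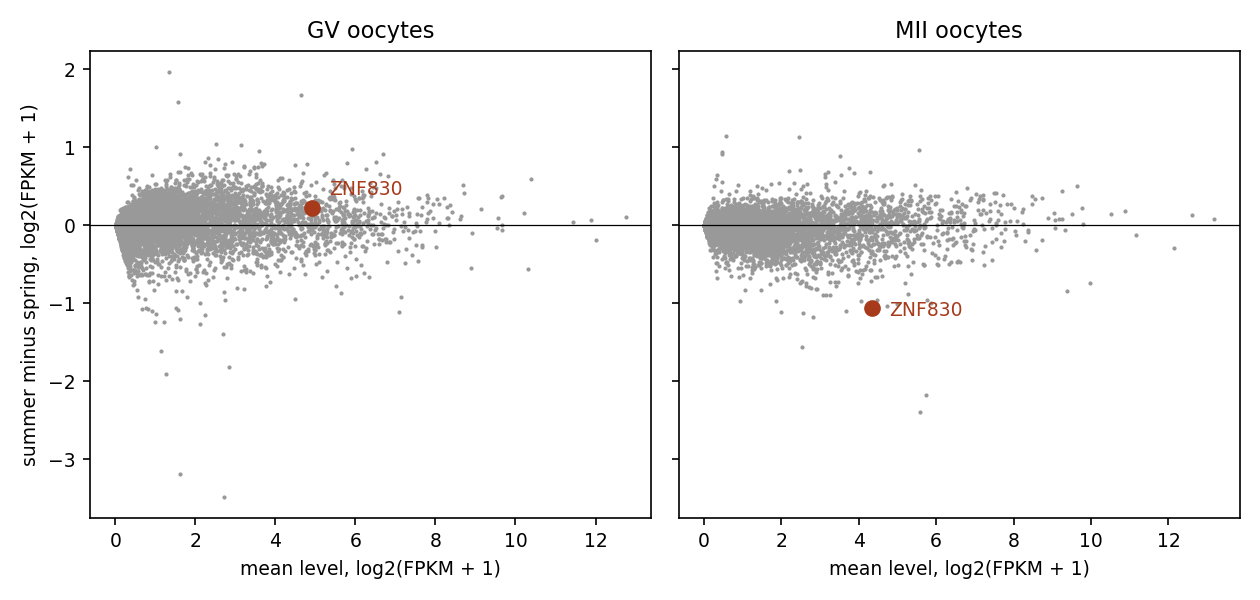
Summer minus spring difference of each of the 9526 entries (grey points) on the log2(FPKM + 1) scale against its mean level on that scale, in GV (left) and MII oocytes (right), with ZNF830 as the large red point. ZNF830 lies at 0.23 in GV oocytes, where it ranked 1952 by the size of the difference, and at the lower edge of the cloud in MII oocytes at -1.06.

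The other 4 entries with the smallest p values in MII oocytes were GOPC, MESDC2, PEX26 and TMEM248, given with fold changes only. GOPC, a Golgi protein that binds membrane receptors, was at 1.50 to 2.58 FPKM in spring and 0.565 to 1.48 FPKM in summer (log2 difference -0.58). MESDC2, an endoplasmic reticulum chaperone of lipoprotein receptors, was at 3.22 to 4.85 FPKM in spring and 1.41 to 3.09 FPKM in summer (-0.67). As with ZNF830, the seasons did not overlap for either gene. PEX26, which anchors the peroxisomal import machinery, was higher in summer by 0.22, and TMEM248, a membrane protein, was lower by 0.08, both from means under 0.2 FPKM.

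The same question in GV oocytes was asked of libraries that had no part in the choice of the gene. ZNF830 did not pass the test: the log2 difference, summer minus spring, was 0.23 (standard error 0.38, 95% interval -0.59 to 1.05, limma adjusted p = 1). A two-sided exact permutation test over all assignments of the 12 libraries to the seasons gave p = 0.645. By p value ZNF830 ranked 5152 of 9526, in a comparison where 1.55% of entries had an unadjusted p under 0.05. Without summer GV replicate 2 the sign turned, to -0.09 (exact permutation p = 0.732), and without the libraries of low depth it was -0.016 (standard error 0.27). The interval still includes a decrease by 0.59 and an increase by 1.05, so a difference of moderate size in GV oocytes was not detectable with these pools.

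Across maturation, the comparison of MII with GV oocytes balanced over both seasons gave a log2 difference of -0.56 (standard error 0.25). The median over all entries was -0.03. The difference of ZNF830 was -0.38 (standard error 0.195) without the libraries of low depth, -0.38 without summer GV replicate 2 alone, and -0.28 with quantile normalization, so its size depends on that library and on the scaling.

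This mean was made of unlike parts. In spring, the levels before and after maturation differed by less than the spread of the libraries, with a log2 difference of 0.08 (standard error 0.20). In summer, the difference was -1.21 (standard error 0.37), and -0.89 (standard error 0.26) without summer GV replicate 2. The season difference in MII minus that in GV oocytes was -1.29 (standard error 0.43), and -0.97 (standard error 0.32) without the same library. All values across maturation share the MII libraries on which the gene was chosen, and no p or interval is given for them.

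The entries next to ZNF830 on the chromosome were at lower levels in every group. 5 other entries lie within 250000 bases: NLE1, a ribosome assembly factor, FNDC8, a fibronectin type III domain gene, RAD51D, a gene of recombination repair, LIG3, DNA ligase III, and CCT6B, a chaperonin subunit best known from testis. CCT6B starts on the opposite strand, with 110 bases between the entries. It was at 0.0171 to 0.676 FPKM in spring and 0.0442 to 0.194 FPKM in summer, where ZNF830 was never under 9.40 FPKM. None of the 5 entries had an unadjusted p under 0.05 in limma between the seasons in GV or MII oocytes. Their differences in MII oocytes ran from -0.07 for LIG3 to 0.03 for RAD51D. The highest MII value of any of the 5 was 0.740 FPKM (LIG3), and NLE1 and FNDC8 were at the lowest value of the table in 8 and 10 libraries. At such levels even a large fall gives a small difference on the log2(FPKM + 1) scale. These differences therefore cannot be set against that of ZNF830.

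With maturation, 2 of the 5 fell by adjusted p, RAD51D by 0.80 (limma adjusted p = 0.000193) and NLE1 by 0.26 (limma adjusted p = 0.0121), against 30.2% of all entries. RAD51D went from medians of 1.03 and 0.999 FPKM in spring and summer GV oocytes to 0.188 and 0.294 FPKM in MII oocytes. LIG3, FNDC8 and CCT6B did not pass, with differences of -0.13, -0.04 and -0.13.

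**Figure D4:**
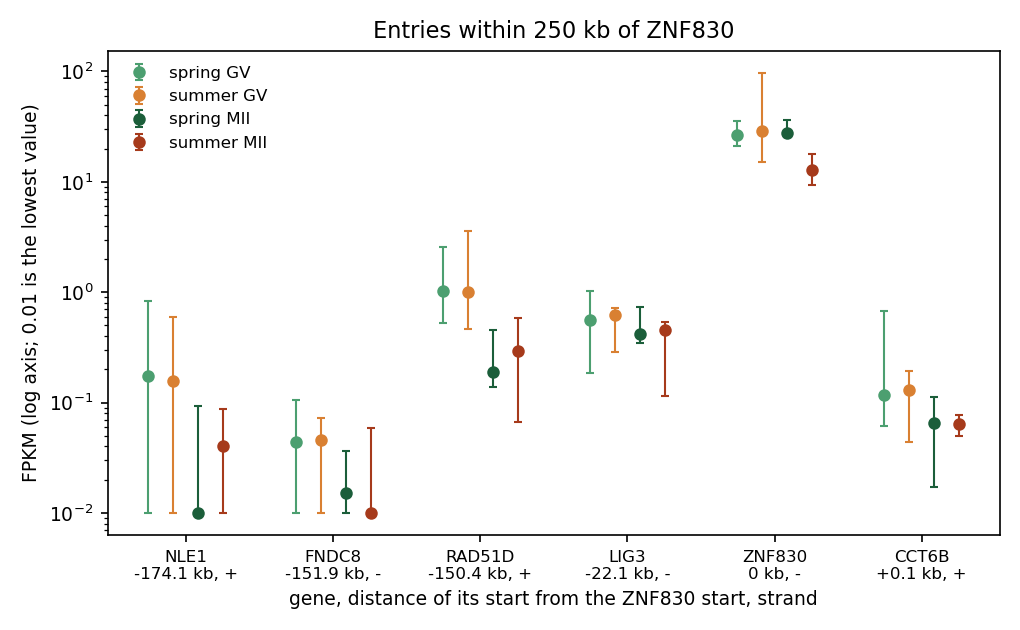
Levels in FPKM (log axis) of the 6 entries within 250000 bases, placed in chromosome order with the distance between start sites and the strand below each name; points are group medians and bars run from the lowest to the highest of 6 libraries. ZNF830 lies above its neighbours in every group, and summer MII is its lowest group.

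For the proteins that ZNF830 works with, a list of XAB2 and PRP19 splicing complex genes had 16 of 18 members in the table. In MII oocytes none of the 16 had an unadjusted p under 0.05 between seasons, where 2.11% of all entries did. 11 had positive and 5 negative values, where 3969 of all 9526 entries were positive and 5557 negative. The median of the list was 0.05 against -0.01 over all entries. The members with the smallest p were MAGOH, an exon junction complex subunit (0.34, standard error 0.31), and PLRG1 (0.15, standard error 0.18) and SNW1 (0.23, standard error 0.29), both subunits of the activated spliceosome, each with a limma adjusted p of 1. XAB2 itself, named here after its value was seen, had a season difference of 0.05 (standard error 0.39) in MII oocytes.

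In GV oocytes none of the 16 passed either, with 14 positive and 2 negative values. Over all 9526 entries, 5243 were positive and 4283 negative. The median of the list was 0.21, against 0.01 over all entries and 0.08 over those with a mean of at least 1 FPKM. PRPF19, the ubiquitin ligase at the core of its complex, had a difference of 0.65 (standard error 0.39), the RNA helicase AQR 0.04 (standard error 0.03) and PLRG1 0.20 (standard error 0.15), each with a limma adjusted p of 1. The value of PRPF19 went with a range of 0.397 to 8.34 FPKM in summer GV libraries.

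With maturation, 7 of the 16 rose and 5 fell by limma adjusted p, where 18.4% and 30.2% of all entries did. BUD31, a factor of the activated spliceosome, fell by 1.88 (limma adjusted p = 3.28e-08), from a median of 20.5 FPKM in spring GV to 5.16 FPKM in spring MII oocytes. CDC5L, a core subunit of the PRP19 complex, rose by 1.58 (adjusted p = 6.09e-08), from 4.64 to 20.9 FPKM in spring. ISY1, which belongs to the XAB2 complex, fell by 0.68 (adjusted p = 3.19e-05). XAB2, again named after its value was seen, fell by 1.66 (adjusted p = 0.000124), from 4.21 to 0.648 FPKM in spring. The median of the list was 0.20 against -0.03 over all entries.

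A second list held genes of DNA end resection and of the ATR checkpoint that answers to single-stranded DNA, with 21 of 24 members in the table. In MII oocytes 1 of the 21 members had an unadjusted p under 0.05 between seasons, where 2.11% of all entries did, 32 of them higher and 169 lower in summer. RPA3, the small subunit of the single-strand binding complex, had a difference of 0.30 (standard error 0.12, limma adjusted p = 1), opposite in sign to ZNF830. ATRIP, which brings ATR to DNA, had a difference of -0.15 (standard error 0.07), and NBN, of the MRE11 complex, one of -0.20 (standard error 0.10), neither of which passed. 8 members had positive and 13 negative values, where 3969 of all 9526 entries were positive and 5557 negative. The median of the list was -0.06 against -0.01 over all entries.

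In GV oocytes 2 of the 21 members had an unadjusted p under 0.05, both with higher values in summer, where 1.55% of all entries had such a p. They were BRCA1, which directs recombination repair (0.12, standard error 0.05), and RAD50, of the MRE11 complex (0.47, standard error 0.21), both with a limma adjusted p of 1. PALB2, which joins BRCA1 to BRCA2, had a difference of 0.43 (standard error 0.25) and did not pass. In this list 19 members had positive and 2 negative values, with a median of 0.06 against 0.01 over all entries. Of all 9526 entries, 5243 were positive. The values of BRCA1 rested on levels of 0.0307 to 0.233 FPKM in spring and 0.147 to 0.316 FPKM in summer.

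With maturation, 15 of the 21 rose and 1 fell by limma adjusted p, where 18.4% and 30.2% of all entries did. The checkpoint kinase CHEK1 rose by 1.16 (limma adjusted p = 5.90e-08), its adaptor CLSPN by 1.31 (adjusted p = 8.14e-05) and PALB2 by 1.16 (adjusted p = 0.000104). RBBP8, the partner of ZNF830 in resection and named after its value was seen, rose by 0.53 (adjusted p = 0.00558). Its season difference in MII oocytes was -0.22 (standard error 0.20), and the median of the list with maturation was 0.26 against -0.03 over all entries.

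**Figure D5:**
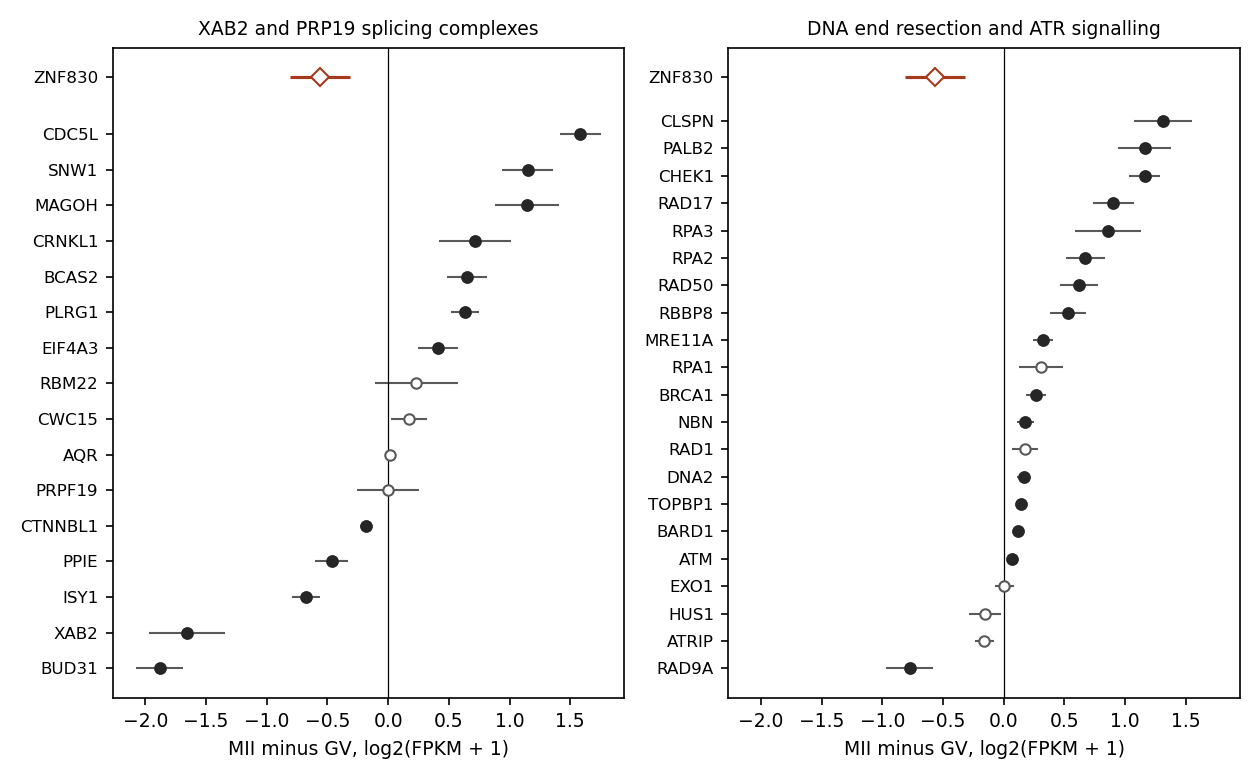
Difference of MII from GV oocytes balanced over both seasons, log2(FPKM + 1), with its standard error as a bar, for 16 splicing complex genes (left) and 21 resection and checkpoint genes (right); filled points have a limma adjusted p under 0.05 and ZNF830, given without a test, is the diamond. Splicing genes run from -1.88 (BUD31) to 1.58 (CDC5L), most checkpoint genes lie above 0, and ZNF830 lies at -0.56.

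Other zinc finger genes, most of which encode DNA-binding proteins, had a median season difference near 0 on the log2(FPKM + 1) scale. Of 141 other ZNF entries tested in MII oocytes, 64 had higher and 77 lower values in summer. Over all 9526 entries, 3969 were higher and 5557 lower. The median of the ZNF entries was -0.01, the same as over all entries to 2 decimals. 3 had an unadjusted p under 0.05 in limma, all lower in summer, where 2.11% of all entries had such a p and 169 of those 201 were lower, so the count is near the background. None of the 141 passed the fold change of 2. The median level of all 158 ZNF entries was 0.156 FPKM in spring MII and 0.146 FPKM in summer MII oocytes. At such levels even a large fall gives a small difference on this scale, so most of these entries could not pass. They therefore cannot be set against ZNF830. The most negative was ZNF689 at -0.89. With maturation, 58 of the 141 fell and 14 rose by adjusted p, where 30.2% and 18.4% of all entries did.

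The genes whose levels followed ZNF830 most closely were sought among 3664 with a mean of at least 1 FPKM, by Pearson's r on log2(FPKM + 1). These are descriptions over libraries that share their scaling, depth and groups, and the median r of all 3664 was 0.154. Over the 24 libraries, MESDC2 (r = 0.776) and FAM50A, a nuclear protein of the spliceosome (r = 0.762), came first, followed by CYB5R1, a cytochrome b5 reductase (0.707), POLR3C, a subunit of RNA polymerase III (0.696), and PSME2, a proteasome activator subunit (0.693). Without summer GV replicate 2, these were 0.683, 0.616, 0.511, 0.502 and 0.555 over 23 libraries. MESDC2 and FAM50A still ranked 1 and 2, while CYB5R1, POLR3C and PSME2 ranked 19, 21 and 6.

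MESDC2 had medians of 3.55 and 3.90 FPKM in spring and summer GV oocytes and of 4.38 and 2.51 FPKM in spring and summer MII oocytes. FAM50A had medians of 11.5, 12.1, 12.0 and 8.47 FPKM in the same order. In both genes, as in ZNF830, summer MII had the lowest median and summer GV replicate 2 the highest single value of its group, 8.09 and 48.5 FPKM. Both genes were picked by r over the same libraries, so nothing is read from these shared features. With the group means subtracted and without that library, r was 0.364 for MESDC2 and 0.424 for FAM50A.

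After the group means were subtracted, the closest genes were CYB5R1 (r = 0.753), TMOD1, which caps actin filaments (0.748), ERLEC1, a lectin of the endoplasmic reticulum (0.744), PSME2 (0.737) and NELFA, a subunit of the negative elongation factor (0.724). Without summer GV replicate 2 these were between 0.490 and 0.627. CYB5R1 and PSME2 were thus among the 5 closest by both measures over 24 libraries, though not over all groups without summer GV replicate 2. Both had low levels in MII oocytes, with medians of 0.178 to 0.332 FPKM.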

How the data were processed

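The authors aligned trimmed reads to UMD3.1.1 with STAR 2.5.3a and quantified them in Partek. The deposited table gives FPKM, not counts. Every library sums to between 86768.1 and 86768.2, and the lowest value is 0.01, so the values had been scaled to a common total and 0.01 added, as seen from the values. ZNF830, the lists and the tests were chosen with earlier results of these data known. log2(FPKM + 1) was fitted with limma 3.58.1 (mean trend) in R 4.3.3 for 9526 entries over 0.1 FPKM in at least 1 of 24 libraries, with Benjamini-Hochberg adjustment over all. Genes were called by the limits of the study, a fold change over 2 with an unadjusted p under 0.05. The study used the GSA algorithm of Partek, whereas the fold change here is on the log2(FPKM + 1) scale. Counts of calls therefore cannot be set against those of the study. Fold changes on this scale understate those of low genes. Permutation tests and fragment recovery used Python 3.11.15, numpy 2.4.6, pandas 2.3.3 and scipy 1.17.1. Fragments were recovered from low values of 2965 genes, and the ZNF830 values lay within 0.0015 of whole numbers in all 24 libraries. Both steps were tested on simulated data, and 200 of 200 genes were recovered for fragments. In a simulated season comparison of 9526 genes with independent noise, 198 of 200 genes with a log2 difference of 2 were called. With none changed, 24 genes were called. The 200 changed genes were drawn from those with a mean over 1 on the log2(FPKM + 1) scale, so recovery at lower levels was not tested. No libraries were identical, and 29 symbols at 2 loci were kept as 2 entries.

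The genes named are ZNF830, the 5 genes most like it by each correlation, the 5 with the smallest p between seasons in MII oocytes, the neighbours, and the 3 members of each list with the smallest p in each comparison. Gene names were checked against RefSeq annotation of another assembly, from which no coordinates were taken. The fits were repeated with quantile normalization, with median-of-ratios scaling, with 0.1 as pseudocount, unfiltered, on entries averaging 1 FPKM or more, over all groups together, with the replicate number as a block, by ratios of group means, without each library in turn and, chosen after seeing the data, without 3 libraries of low depth. A further list member is not reported here and was left out of its list. The test planned for ZNF830 between stages is not given, because it includes the MII libraries the gene was chosen on. Sequences, climate and DNA methylation were not analysed here.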

Additional observations from a re-analysis of the deposited data

Results flagged for a closer look

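ZNF830 was at 97.2 FPKM in summer GV replicate 2, farther from the other 5 libraries of its group (at most 40.4 FPKM) than Dixon's 95% limit allows. The same library had the highest summed level of oocyte markers in its group, 2183 FPKM, and of cumulus cell markers, 123.7 FPKM, both past the same limit. Spring MII replicate 1 passed the limit for ZNF830 at 36.4 FPKM, against at most 29.2 FPKM in the other 5 libraries of its group. The summed cumulus cell markers also passed it in spring GV replicate 6, at 590.4 FPKM, and in spring MII replicate 6, at 163.2 FPKM. In these libraries ZNF830 was at 35.3 FPKM, the highest of its group, and at 27.5 FPKM, close to the median of its group. 16 sets of 6 libraries were compared with this limit, which chance alone exceeds in about 1 in 20. The part of cumulus cells or of depth in the value of ZNF830 in summer GV replicate 2 was not tested.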

How the results depend on the processing

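The season difference of ZNF830 in MII oocytes lay between -1.15 and -0.97 in 21 alternatives, and the gene ranked 1 to 8 by p. The value fell short of a 2-fold difference, and so of a call, with median-of-ratios scaling (-0.97), without spring MII replicate 1 (-0.99) and without summer MII replicate 2 (-0.97). In GV oocytes it was 0.23 and reversed to -0.016 in libraries with a relative depth of at least 0.5 and to -0.092 without summer GV replicate 2, and leaving out single libraries gave -0.092 to 0.43. ZNF830 was not called in any of these, with p between 0.269 and 0.954. The maturation difference over both seasons ranged from -0.73 to -0.28, the latter under quantile normalization. In spring it ranged from -0.15, under median-of-ratios scaling, to 0.38, and in summer from -1.52 to -0.89. The season difference in MII minus that in GV oocytes ranged from -1.58 to -0.97. A pseudocount of 0.1 shifted the median maturation difference of all genes to -0.14, when that of ZNF830 was -0.59.

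With the replicate number as a block, the values of ZNF830 were 0.23 (standard error 0.40) in GV and -1.06 (standard error 0.14) in MII oocytes between seasons, and -0.56 (standard error 0.26) with maturation. Libraries of equal number did not deviate together in every pair. The correlation exceeded 0.1 in 1 of 6 pairs in GV (highest 0.439) and in 4 of 6 in MII oocytes (highest 0.764) between seasons. Between stages it did so in 3 of 6 pairs in spring (highest 0.535) and 4 of 6 in summer (highest 0.649). These correlations cannot decide whether equal numbers share a cow, since deviations may also reflect depth. The main fits did not pair the libraries, and a shared cow was not tested. The block made 4 calls in GV and 6 in MII oocytes.

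Counts of called genes also depended on the processing. In GV oocytes, 3 genes were called, and 37 with a pseudocount of 0.1, 6 with quantile normalization or median-of-ratios scaling, 14 with all 4 groups in one fit, 56 by the ratio of group means, and 3 to 13 without single libraries, the most without spring GV replicate 6. In MII oocytes, 4 were called, and 23 with a pseudocount of 0.1, 1 with median-of-ratios scaling, 70 by the ratio of group means, 9 without the 3 libraries of low depth, and 2 to 16 without single libraries, the fewest without spring MII replicate 1 and the most without summer MII replicate 1. With maturation, 1098 were called, and 2680 with a pseudocount of 0.1 and 3813 by the ratio of group means. The planned fit without libraries of few detected genes was not run, because 0 libraries were that far below the median. The cause of these shifts was not tested.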
